A study of Mus musculus with 12 samples.

Results

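The expression of 10 genes by which tissue macrophages take up and process dying cells, haemoglobin and iron was followed in the bone marrow of young mice after sub-lethal irradiation and treatment with parathyroid hormone (PTH). They are Marco, Cd163, Mrc1, Cd5l, Timd4, Axl, Spic, Hmox1, Slc40a1 and Vcam1. They were taken from the array table by gene symbol, and each of the 10 had exactly 1 row on the array, out of 19938 genes measured. Irradiated marrow held more Marco, Cd5l, Hmox1 and Mrc1 RNA than nonirradiated marrow, by 1.35-fold to 2.71-fold when averaged over PTH and vehicle, whereas the other 6 genes did not pass the test. No member passed the test for PTH.

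Macrophages that live in tissues clear dead cells, old red blood cells and particles from their surroundings. In the marrow and spleen they engulf senescent red cells and the nuclei that maturing erythroblasts expel, break down the haem and export its iron for new red cell production. Scavenger receptors on their surface bind modified lipoproteins, bacteria, haptoglobin-haemoglobin complexes or the phosphatidylserine that dying cells expose. Several of these genes are also used by other marrow cells, with Vcam1 and Axl known in stromal cells and Hmox1 in many cell types under oxidative stress.

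The samples were whole marrow flushed from the long bones of B6 mice aged 16 days, on 12 arrays in 4 groups of 3. In the irradiated PTH group, mice received 2 fractions of 310 cGy at 10 days of age and PTH from day 11 to day 15. Irradiated vehicle mice received the same irradiation and vehicle on the same days, nonirradiated PTH mice received PTH alone, and nonirradiated vehicle mice received vehicle alone. PTH, a hormone of calcium balance that stimulates osteoblasts, was given for 5 days that began 24 hours after irradiation. No label ties an array to a mouse, so the p-values below measure the spread among arrays, which may in part be technical. The design lets the effect of irradiation be compared with and without PTH. The sex pattern of the arrays, given below, also differs between the groups.

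Values are log2 expression as the authors deposited it, and they are compared between groups and never between genes. The tissue markers were those of whole marrow. Over the 12 arrays the neutrophil gene S100a8 ranged from 11.71 to 13.12 and the erythroid gene Alas2 from 11.17 to 12.35. The macrophage genes Csf1r and Adgre1 ranged from 8.0 to 9.77 and from 8.5 to 9.53. Irradiated PTH replicate 3 and nonirradiated vehicle replicate 3 had a narrow interquartile range of 2.88 and 2.86, against at least 3.13 on the other arrays. By Xist and Y-linked genes, the female pattern was found on 1 of 3 irradiated PTH, 1 of 3 irradiated vehicle, 3 of 3 nonirradiated PTH and 0 of 3 nonirradiated vehicle arrays.

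The stretches before the transcription starts of 3 members that rose after irradiation, and of Cd163, which did not pass the test, are shown because macrophage genes often carry binding motifs for PU.1, a transcription factor that macrophages need. They come from RefSeq in build GRCm38.p6 and run 5′ to 3′ on the gene's strand. Marco lies on the minus strand at chr1:120505025-120505274. The others lie on the plus strand, with Cd5l at chr3:87357631-87357880, Mrc1 at chr2:14229164-14229413 and Cd163 at chr6:124304401-124304635. Capitals mark the PU-box core GAGGAA, or TTCCTC where it is read on the opposite strand.
Marco: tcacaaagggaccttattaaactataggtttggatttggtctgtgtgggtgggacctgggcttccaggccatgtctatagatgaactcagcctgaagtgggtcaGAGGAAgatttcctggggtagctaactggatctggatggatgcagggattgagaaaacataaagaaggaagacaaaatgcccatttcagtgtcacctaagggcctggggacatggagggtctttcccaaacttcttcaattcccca
Cd5l: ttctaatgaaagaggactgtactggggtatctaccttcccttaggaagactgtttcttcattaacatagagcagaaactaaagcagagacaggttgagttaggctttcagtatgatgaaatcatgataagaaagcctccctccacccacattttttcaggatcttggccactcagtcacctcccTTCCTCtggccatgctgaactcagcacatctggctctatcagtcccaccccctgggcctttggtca
Mrc1: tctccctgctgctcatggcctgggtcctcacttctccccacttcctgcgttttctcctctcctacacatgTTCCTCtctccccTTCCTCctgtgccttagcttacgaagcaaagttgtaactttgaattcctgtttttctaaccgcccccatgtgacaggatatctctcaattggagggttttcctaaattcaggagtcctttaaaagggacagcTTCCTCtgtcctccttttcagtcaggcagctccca
Cd163: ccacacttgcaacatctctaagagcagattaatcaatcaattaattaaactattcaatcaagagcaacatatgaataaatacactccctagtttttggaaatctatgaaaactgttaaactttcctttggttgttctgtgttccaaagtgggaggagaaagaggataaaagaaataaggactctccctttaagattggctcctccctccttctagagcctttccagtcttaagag

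The PU-box core began at position -146 relative to the start in Marco, at -66 in Cd5l and at -180, -167 and -35 in Mrc1. In windows from 250 bases before to 50 bases after the start, which were found for 7 of the 10 members, 4 held the core on either strand: Marco, Cd5l, Mrc1 and Axl. Of all 32851 such windows in the RefSeq table, 28.3% held it. The core was absent from the windows of Cd163, Timd4 and Spic. In Axl, which did not pass the test, the core began at -130 relative to the start site of its window. That site and the core both lay downstream of the RefSeq gene start, and the 59 bases of the window before the gene start held 0 cores. A longer PU.1-type motif, AGGAAGT, whose AGGAA can overlap the core, was found on either strand in the windows of Mrc1 and Spic and in 9.35% of all windows. No window was available for Hmox1, Slc40a1 or Vcam1, so no motif was searched in these genes. The antioxidant response motif TGACNNNGC was found in 0 of the 7 windows and in 12.4% of all windows. The MITF-type E-box CATGTG was found in the windows of Marco, Mrc1 and Timd4 and in 14.2% of all windows. The motif TGCTGA was found in the windows of Cd5l, Spic and Timd4 (19.5% of all windows), and CCAAT in those of Cd163, Mrc1 and Timd4 (37.4%). None of the 7 held TTCNNNGAA (8.3% of all windows), TGAGTCA (5.2%), CACGTG (7.15%) or TATAAA (13.6%). These matches describe letters in a window, and 10 motifs were searched with the expression results known.

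When irradiated and nonirradiated marrow were compared with PTH and vehicle averaged, 4 of the 10 members rose and 0 fell. Over all genes, 2.51% were called as higher and 3.59% as lower by limma at an adjusted p under 0.05. The median log2 difference of the members was 0.28, against -0.00872 over all genes. For 3 members, Marco, Mrc1 and Hmox1, all 6 irradiated arrays lay above all 6 nonirradiated arrays, which held for 1.69% of all genes. These are levels in bulk marrow, in which more cells of a type and more RNA per cell cannot be told apart.

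**Figure D1:**
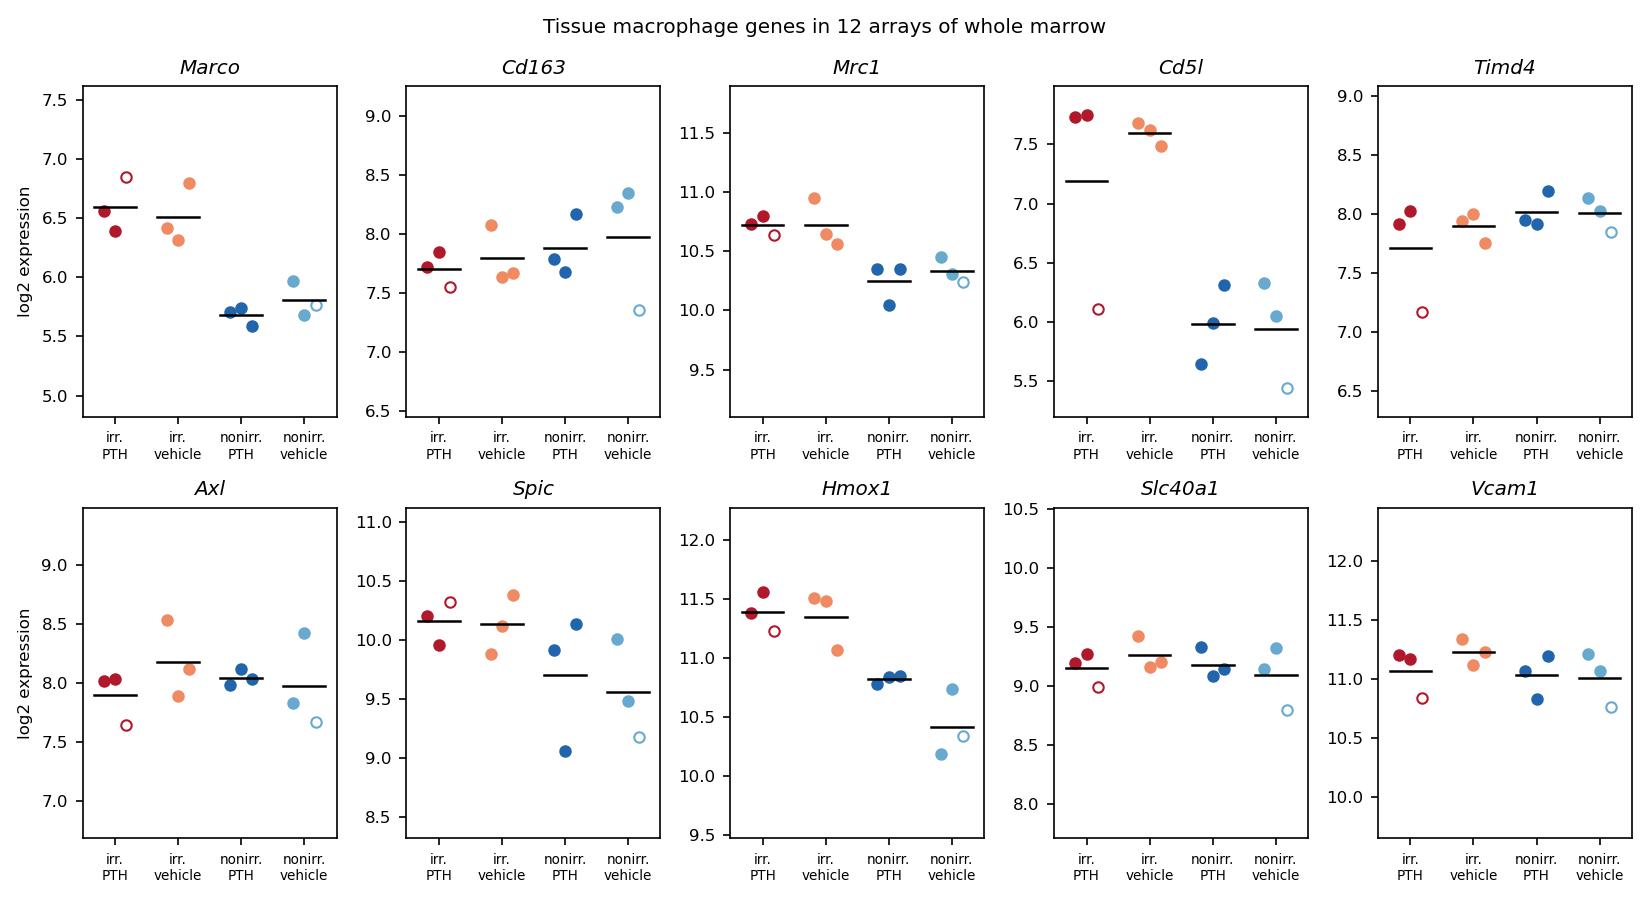
Log2 expression of the 10 genes on each of the 12 arrays (vertical axes, each panel spanning the same number of log2 units), in irradiated PTH, irradiated vehicle, nonirradiated PTH and nonirradiated vehicle marrow from left to right. Points are arrays, bars are group means and open circles are the 2 arrays with a narrow range. Marco, Mrc1 and Hmox1 separate all irradiated from all nonirradiated arrays, and Cd5l does so except on irradiated PTH replicate 3.

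Among the surface receptors, Marco, a class A scavenger receptor that binds bacteria and particles, read 6.56, 6.39 and 6.85 in irradiated PTH marrow and 6.42, 6.32 and 6.80 in irradiated vehicle marrow. It read 5.71, 5.74 and 5.59 in nonirradiated PTH marrow and 5.97, 5.68 and 5.77 in nonirradiated vehicle marrow. All irradiated arrays were higher than all nonirradiated ones, and the lowest irradiated value stood 0.35 log2 units above the highest nonirradiated value. The averaged difference was 0.81 (SE 0.111), a 1.75-fold rise with a 95% interval of 1.48 to 2.08, with an adjusted p of 0.000897 by limma. Marco also passed in each treatment alone, with a difference of 0.92 (SE 0.158, adjusted p = 0.00903) in PTH mice and of 0.71 (SE 0.158, adjusted p = 0.0397) in vehicle mice. Marco read low, with a mean of 6.15 over the 12 arrays, whose medians ran from 6.18 to 6.25. All its nonirradiated values were under 6, although its mean stayed above the filter on genes with a mean under 6.

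Mrc1, the mannose receptor CD206, which takes up glycoproteins with mannose or fucose ends, read 10.73, 10.80 and 10.64 in irradiated PTH marrow and 10.95, 10.65 and 10.56 in irradiated vehicle marrow. The nonirradiated arrays read 10.35, 10.05 and 10.35 with PTH and 10.45, 10.31 and 10.24 with vehicle. The groups did not overlap, but the gap was narrow, at 0.11 between the lowest irradiated and the highest nonirradiated array. The averaged rise was 0.43 (SE 0.0972), or 1.35-fold with an interval of 1.16 to 1.56 (limma adjusted p = 0.0203). In PTH mice (0.47, adjusted p = 0.115) and in vehicle mice (0.39, adjusted p = 0.216) Mrc1 did not pass. Its averaged call was lost without nonirradiated PTH replicate 2, at an adjusted p of 0.0528, and with arrays centred on housekeeping genes, at 0.0563.

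Cd163, the receptor through which macrophages take up haptoglobin-haemoglobin complexes, showed no such separation. It read 7.72, 7.85 and 7.55 in irradiated PTH marrow and 8.08, 7.64 and 7.67 in irradiated vehicle marrow, against 7.79, 7.68 and 8.17 with PTH and 8.23, 8.35 and 7.36 with vehicle in nonirradiated marrow. The nonirradiated vehicle arrays alone held both the highest and the lowest of the 12 values. The averaged difference was -0.18 with an interval of -0.55 to 0.20 (limma adjusted p = 0.712).

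Cd5l, also called AIM, is a protein that macrophages secrete and that belongs, like CD163, to the scavenger receptor cysteine-rich family. It showed the widest difference of the 10. The arrays read 7.73, 7.75 and 6.11 in irradiated PTH marrow and 7.68, 7.62 and 7.49 in irradiated vehicle marrow, against 5.64, 5.99 and 6.31 in nonirradiated PTH marrow and 6.33, 6.05 and 5.44 in nonirradiated vehicle marrow. Of the 6 irradiated arrays, 5 lay above every nonirradiated array, and irradiated PTH replicate 3 lay among the nonirradiated values. The averaged rise was 1.44 (SE 0.269), or 2.71-fold with an interval of 1.80 to 4.06 (limma adjusted p = 0.00675). In vehicle mice the rise was 3.15-fold (adjusted p = 0.0448), and in PTH mice the value was 2.32-fold and did not pass (adjusted p = 0.149). Without irradiated PTH replicate 3, the log2 difference in PTH mice was 1.76 and passed with an adjusted p of 0.00299.

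That array also read low for other members. Irradiated PTH replicate 3 was the lowest of its group for 8 of the 10 genes, Marco and Spic being the exceptions. The share of all genes for which it was the lowest was not computed, so the count is not a result about the members. The mean of 11 housekeeping genes was 11.05 on it, against 11.49 on both other arrays of its group. Whether these array differences account for the Cd5l values of either array was not tested.

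The receptors for dying cells gave no call. Timd4, a phosphatidylserine receptor of resident macrophages, read 7.92, 8.03 and 7.17 in irradiated PTH marrow and 7.94, 8.0 and 7.76 in irradiated vehicle marrow. It read 7.95, 7.92 and 8.20 in nonirradiated PTH marrow and 8.14, 8.03 and 7.85 in nonirradiated vehicle marrow. The groups overlapped, although 2 irradiated arrays lay below all nonirradiated ones, and the averaged difference was -0.21 (interval -0.52 to 0.09, limma adjusted p = 0.525). Axl, a receptor tyrosine kinase that binds phosphatidylserine through GAS6, had group means of 7.90 ± 0.224 and 8.18 ± 0.326 in irradiated PTH and irradiated vehicle marrow, and of 8.04 ± 0.0717 and 7.97 ± 0.394 in nonirradiated PTH and nonirradiated vehicle marrow (SD, n = 3 each). Single Axl arrays ranged from 7.64 to 8.53 in irradiated marrow and from 7.67 to 8.42 in nonirradiated marrow, so the groups overlapped. Its averaged difference was 0.03 (interval -0.29 to 0.35, limma adjusted p = 0.959).

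Spic encodes the transcription factor SPI-C, which haem induces in monocytes and which red pulp and some marrow macrophages of the mouse need. It read 10.20, 9.96 and 10.32 in irradiated PTH marrow and 9.88, 10.12 and 10.38 in irradiated vehicle marrow. Nonirradiated PTH arrays read 9.91, 9.06 and 10.13 and nonirradiated vehicle arrays 10.01, 9.48 and 9.18. Of the 6 irradiated arrays, 3 were above every nonirradiated one, and the nonirradiated arrays spread over more than 1 log2 unit. The averaged difference was 0.51 with an interval of 0.10 to 0.93, and its adjusted p of 0.172 did not pass (limma, unadjusted p = 0.0203).

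Hmox1, which encodes the inducible haem oxygenase that opens the haem ring and frees its iron, separated the groups as Marco did. It read 11.38, 11.56 and 11.23 in irradiated PTH marrow and 11.51, 11.48 and 11.07 in irradiated vehicle marrow. Nonirradiated PTH arrays read 10.78, 10.84 and 10.85, and nonirradiated vehicle arrays 10.19, 10.74 and 10.34. All irradiated arrays were higher than all nonirradiated ones. The averaged rise was 0.75 (SE 0.117), or 1.68-fold with an interval of 1.41 to 2.01 (limma adjusted p = 0.00211). It passed in vehicle mice (0.93, SE 0.166, adjusted p = 0.0116) and not in PTH mice (0.57, SE 0.166, adjusted p = 0.114), but the test of the difference between these did not pass either (-0.36, adjusted p = 0.732).

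Slc40a1 encodes ferroportin, the iron exporter through which macrophages release recycled iron. It read 9.19, 9.27 and 8.99 in irradiated PTH marrow and 9.42, 9.16 and 9.20 in irradiated vehicle marrow, against 9.33, 9.08 and 9.14 with PTH and 9.14, 9.32 and 8.80 with vehicle in nonirradiated marrow. The groups overlapped, with 1 irradiated array above every nonirradiated one. Its averaged difference was 0.07 with an interval of -0.16 to 0.31 (limma adjusted p = 0.836).

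Vcam1, the adhesion molecule by which macrophages of erythroblastic islands and stromal cells hold blood cells, averaged 11.07 ± 0.199 in irradiated PTH marrow and 11.23 ± 0.107 in irradiated vehicle marrow. It averaged 11.03 ± 0.181 in nonirradiated PTH marrow and 11.01 ± 0.229 in nonirradiated vehicle marrow (SD, n = 3 each). The arrays read 11.20, 11.17 and 10.84 with PTH and 11.34, 11.12 and 11.23 with vehicle in irradiated marrow, against 11.07, 10.83 and 11.19 with PTH and 11.21, 11.07 and 10.76 with vehicle in nonirradiated marrow. The groups overlapped, with 2 irradiated arrays above every nonirradiated one. The averaged difference of 0.13 had an interval of -0.11 to 0.37 (limma adjusted p = 0.653). For Axl, Slc40a1 and Vcam1 the averaged intervals reached up to 0.35, 0.31 and 0.37 log2 units. In vehicle mice alone they reached up to 0.66, 0.5 and 0.55.

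**Figure D2:**
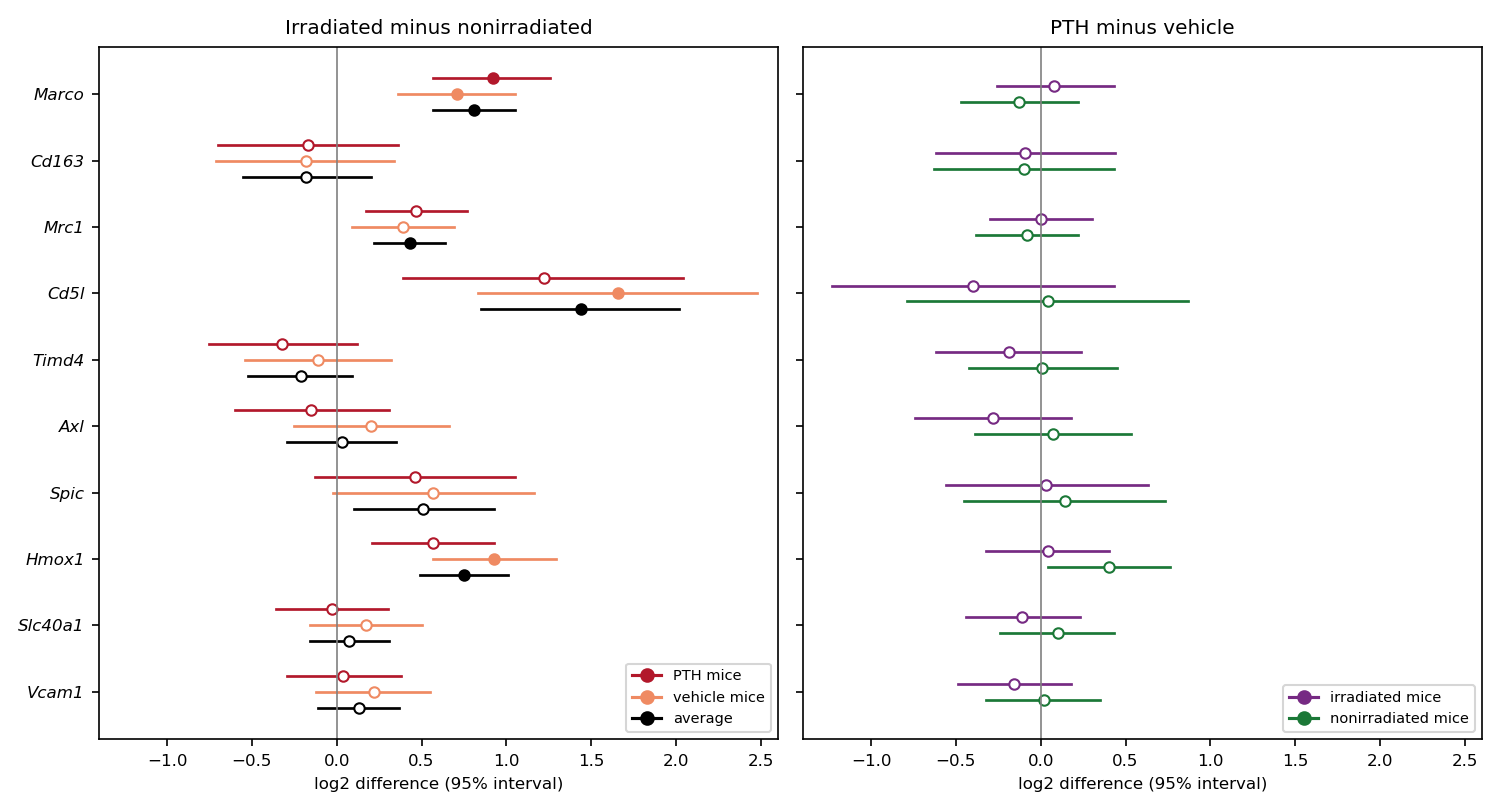
Log2 differences of the 10 genes with 95% intervals, for irradiated minus nonirradiated marrow (left panel, in PTH mice, in vehicle mice and averaged) and PTH minus vehicle (right panel, in irradiated and in nonirradiated mice). Filled points have an adjusted p under 0.05 and are found only in the left panel, for Marco, Mrc1, Cd5l and Hmox1.

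By treatment, 1 member was called in PTH mice (Marco) and 3 in vehicle mice (Marco, Cd5l and Hmox1), where 0.692% and 1.21% of all genes were called as higher. All 3 irradiated arrays lay above all 3 nonirradiated arrays for 3 members in PTH mice and for 4 in vehicle mice, which held for 8.93% and 8.95% of all genes. The median log2 difference of the members was 0.25 in PTH mice and 0.30 in vehicle mice. The 2 comparisons share no array, and the interaction of irradiation and PTH, which tests whether they differ, called no member. Over all genes the interaction called 0%, with 1094 genes at an unadjusted p under 0.05 in limma, and its member values ran from -0.44 for Cd5l to 0.21 for Marco (adjusted p 0.732 to 0.9918).

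PTH itself gave no call among the members. In irradiated mice, PTH minus vehicle ranged from -0.40 for Cd5l (interval -1.23 to 0.43) to 0.08 for Marco (interval -0.26 to 0.43), with adjusted p from 0.844 to 0.9987. Limma called 0% of all genes in this comparison, 759 genes had an unadjusted p under 0.05, and no member was among these. In nonirradiated mice limma likewise called 0% of all genes, with 356 at an unadjusted p under 0.05. Hmox1 was the 1 member among these 356, at 10.82 ± 0.0366 in nonirradiated PTH marrow and 10.42 ± 0.284 in nonirradiated vehicle marrow (SD, n = 3 each), a difference of 0.40 (interval 0.04 to 0.76). All 3 PTH arrays were higher than the 3 vehicle arrays, but the adjusted p was 0.9996. All 3 of these PTH arrays had the female pattern and none of the vehicle arrays did, so sex and PTH cannot be told apart there.

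**Figure D3:**
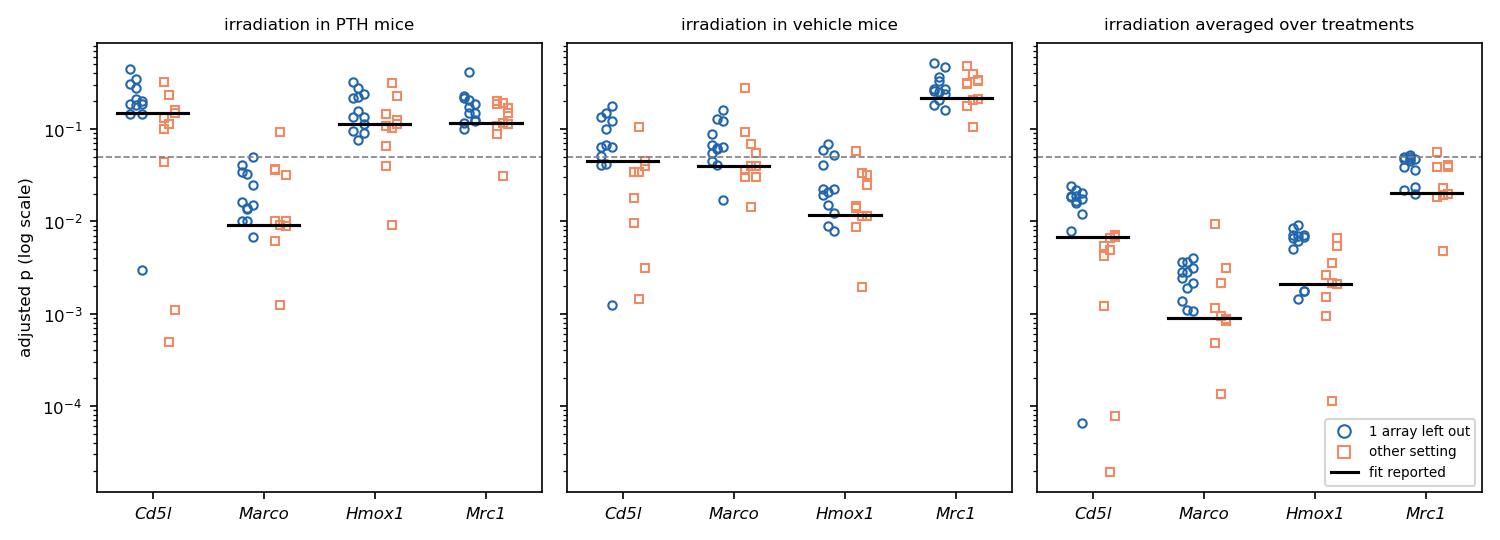
Adjusted p (vertical axis, log scale) of the 4 genes called in the averaged comparison, for irradiation in PTH mice, in vehicle mice and averaged. Bars are the reported fit, circles the fits with 1 of the 12 arrays left out, squares the other settings, and the dashed line is 0.05. In the averaged comparison Marco, Cd5l and Hmox1 stay under the line in every fit drawn, and Mrc1 crosses it in 2.

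The averaged calls of Marco, Cd5l and Hmox1 were kept in all 12 fits that left out 1 array, with adjusted p of at most 0.00401, 0.0239 and 0.0092. The call of Mrc1 was kept in 11 of these. The calls within vehicle mice were less firm, as Marco and Cd5l kept theirs in 3 of the 12 fits and Hmox1 in 9. No member was called in vehicle mice without nonirradiated vehicle replicate 3, irradiated vehicle replicate 1 or irradiated vehicle replicate 2. With the sex pattern as a term, Marco in PTH mice had an adjusted p of 0.0928, and 1 member, Hmox1, was called in vehicle mice.

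Other genes of the same pathways were read from lists. Of 29 other genes of haem and iron handling, 4 rose in the averaged comparison and 0 fell, with a median of 0.14. Srxn1, sulfiredoxin, an antioxidant enzyme under NRF2 control, rose by 0.96 (limma adjusted p = 0.00135), and Txnrd1, thioredoxin reductase, by 0.60 (adjusted p = 0.00153). Hp, haptoglobin, which binds free haemoglobin, rose by 1.24 (adjusted p = 0.00262), and Cp, the ferroxidase ceruloplasmin, by 0.51 (adjusted p = 0.021). In vehicle mice Hp rose by 1.88 (limma adjusted p = 0.00446). In PTH mice Hp was not called, at group means of 10.62 in irradiated and 10.02 in nonirradiated marrow. Its interaction of irradiation and PTH was -1.29 and did not pass (limma adjusted p = 0.732). Hp is also made by neutrophils and adipocytes. The Cp call was kept in 5 of 12 fits that left out 1 array.

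Srxn1 and Txnrd1 had the same separation as Hmox1. Srxn1 read 8.65, 8.43 and 7.92 in irradiated PTH marrow and 8.36, 8.57 and 8.31 in irradiated vehicle marrow, against 7.47, 7.49 and 7.36 with PTH and 7.72, 7.40 and 7.04 with vehicle in nonirradiated marrow. Txnrd1 read 8.82, 8.76 and 8.52 in irradiated PTH marrow and 8.95, 8.86 and 8.90 in irradiated vehicle marrow, against 8.26, 8.33 and 8.14 with PTH and 8.27, 8.26 and 7.97 with vehicle in nonirradiated marrow. For both genes every irradiated array was above every nonirradiated array. The other 25 genes of the list were not called, among them Nqo1, Gclm, Gclc and Nfe2l2, the gene of NRF2.

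Of 20 other scavenger and lectin receptors, 4 rose and 1 fell, with a median of 0.16. Clec4n, the C-type lectin dectin-2 that recognises fungal mannans, rose by 2.19 (limma adjusted p = 9.15e-06). It read 7.82, 8.01 and 8.13 in irradiated PTH marrow and 7.48, 7.55 and 8.30 in irradiated vehicle marrow, and between 5.51 and 6.09 on all nonirradiated arrays. Cxcl16, a chemokine that also acts as a scavenger receptor, rose by 0.65 (adjusted p = 0.00208) and the galactose lectin Clec10a by 0.73 (adjusted p = 0.0224). Both read low, at 4.89 to 6.02 and at 3.89 to 5.33 on single arrays, and a filter on genes with a mean under 6 left them out. Clec10a kept its call in 8 of the 12 fits that left out 1 array and lost it with housekeeping centring, at an adjusted p of 0.0658. Msr1, the class A scavenger receptor SR-A, rose by 0.62 (adjusted p = 0.0259) and is named after its value was seen. Its call was lost with housekeeping centring and when any of nonirradiated vehicle replicate 2 or 3, nonirradiated PTH replicate 2 or 3, irradiated vehicle replicate 3 or irradiated PTH replicate 2 was left out. Cd209a, a lectin of dendritic cells and some monocytes, fell by 1.44 (adjusted p = 5.48e-05), and all 6 irradiated arrays were below all 6 nonirradiated ones.

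Of 27 other genes for uptake of dying cells, 0 rose and 1 fell, with a median of 0.04. The gene that fell was Cd300lb, an immunoglobulin-family receptor of myeloid cells (-1.24, limma adjusted p = 0.00135). Of 21 regulators of macrophages, 2 rose and 0 fell, with a median of 0.02 and with 11 positive and 10 negative differences. These were Nr1h3, the oxysterol receptor LXR-alpha that controls genes for cholesterol export (0.41, adjusted p = 0.0283), and Pparg (0.40, adjusted p = 0.0435), a lipid-sensing receptor that is also a defining gene of adipocytes. Nr1h3 kept its call in 6 and Pparg in 1 of the 12 fits that left out 1 array.

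Of 19 general macrophage markers, 3 rose and 0 fell, with a median of 0.30 and with 13 positive and 6 negative differences. In PTH mice 0 were called, with a median of 0.13 and 12 positive and 7 negative differences. Csf1r was among the negative ones there (-0.64, limma adjusted p = 0.407). In vehicle mice 1 was called, with a median of 0.54. In the averaged comparison the 3 called genes were as follows. Lgmn, a lysosomal protease, rose by 0.78 (limma adjusted p = 0.0257), the folate receptor Folr2 by 0.44 (adjusted p = 0.0312) and the complement gene C1qc by 0.49 (adjusted p = 0.0441). These calls were kept in 4, 5 and 2 of the 12 fits that left out 1 array, and the count of 3 ranged from 0 to 6 over those fits. Folr2 had a mean under 6, and the filter on such genes left it out. Adgre1, a surface receptor used to mark mouse macrophages, read from 8.5 to 9.41 on irradiated arrays and from 8.70 to 9.53 on nonirradiated arrays, a difference of -0.15 that did not pass (adjusted p = 0.782). The mean of the 19 markers ranged over arrays from 7.88 to 8.34 in irradiated PTH marrow and from 8.24 to 8.49 in irradiated vehicle marrow, against 8.05 to 8.13 in nonirradiated PTH marrow and 7.76 to 8.12 in nonirradiated vehicle marrow.

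**Figure D4:**
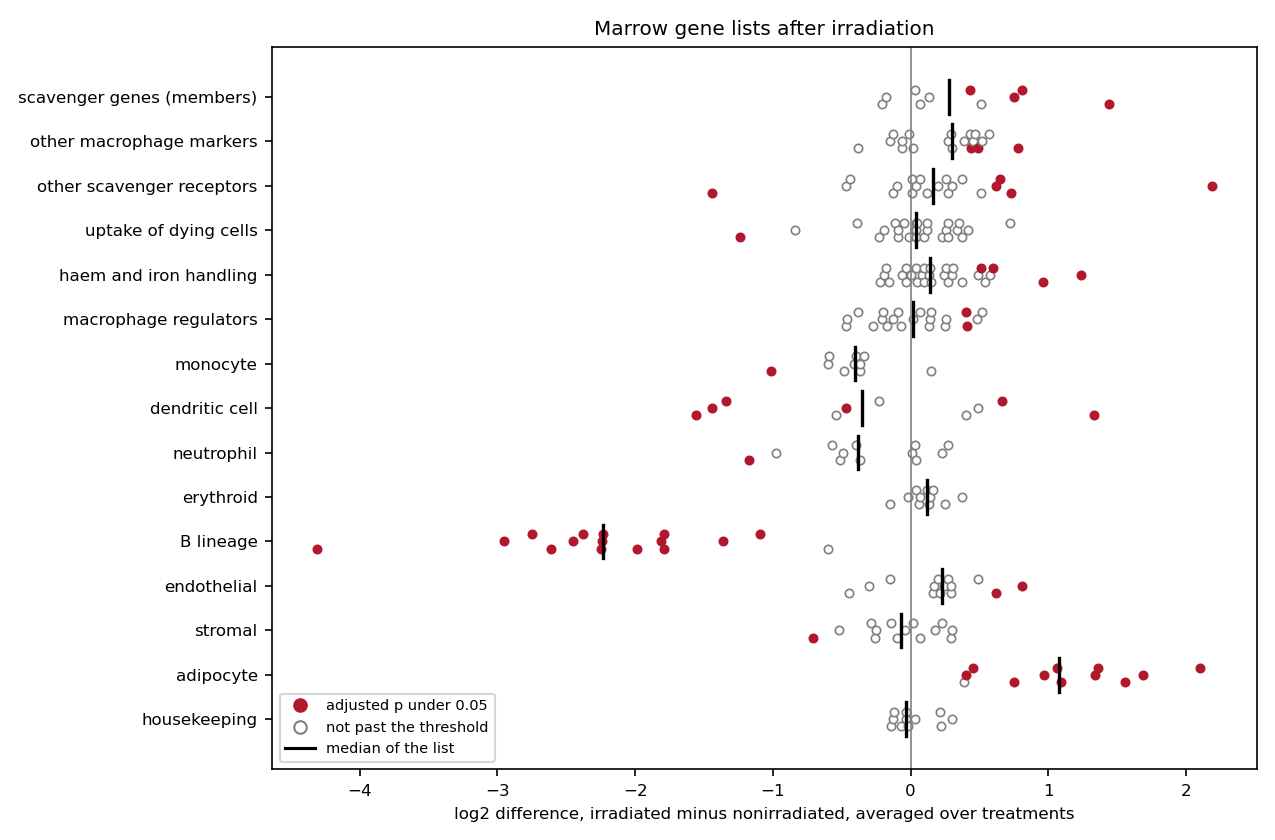
Log2 difference of irradiated minus nonirradiated marrow, averaged over treatments (horizontal axis), for each measured gene of the members and of 14 lists. Filled points have an adjusted p under 0.05 and bars are medians. The B-lineage list has a median of -2.24 and the adipocyte list of 1.08, against 0.28 for the members.

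Lists of other marrow cells moved in the same arrays. Of 16 B-lineage genes, 15 fell and 0 rose, with a median of -2.24, and their mean ranged from 6.67 to 7.11 in irradiated PTH and from 6.99 to 7.37 in irradiated vehicle marrow, against 9.17 to 9.49 in nonirradiated PTH and 9.03 to 9.39 in nonirradiated vehicle marrow. Of 12 adipocyte genes, 11 rose and 0 fell, with a median of 1.08, and their mean ranged from 8.37 to 8.71 in irradiated PTH and from 9.03 to 9.22 in irradiated vehicle marrow, against 7.52 to 7.71 in nonirradiated PTH and 7.64 to 7.90 in nonirradiated vehicle marrow. Of 10 monocyte genes, 0 rose and 1 fell, F13a1, which encodes a subunit of coagulation factor XIII (-1.01, limma adjusted p = 0.0152), and the median was -0.41. Of 11 erythroid genes, 0 passed in either direction, with a median of 0.12, and the 11 housekeeping genes had a median of -0.03. Of 10 dendritic cell genes, 2 rose and 4 fell (median -0.35), and of 12 neutrophil genes, 0 rose and 1 fell (median -0.38). Of 14 endothelial genes, 2 rose and 0 fell (median 0.22), and of 14 stromal genes, 0 rose and 1 fell (median -0.07). No marker read 0 on these arrays, on which every probe has a level. The part of these shifts in the members' values was not tested.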

How the data were processed

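Total RNA of whole marrow was measured on 12 arrays, 3 in each of 4 groups taken from the sample labels. Per the labels' protocols, biotinylated cDNA was made from 100 ng of RNA. The tools affy, RMA and limma are named in the submitters' processing notes without versions, and the array values used are the log2 values the authors deposited. The log2 scale was read from the values and from the name RMA, a method of background correction, quantile normalization and probe summary. Joint normalization of the arrays and the genome build used for them are not given in the sources used here.

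Of 35556 rows on the arrays, 21789 had exactly 1 gene symbol in the platform annotation, 1621 had several and 12146 had none listed. Rows with 1 symbol gave 19938 genes, with the row of the highest mean used for the 999 genes that had several. Symbols were updated through RefSeq, where 91 rows found no match. All 12 arrays entered 1 limma fit of 4 group means (limma 3.58.1, R 4.3.3, default moderation, 8 residual degrees of freedom), and p-values were adjusted over all genes by Benjamini-Hochberg, with a call at an adjusted p under 0.05. All p-values are two-sided. Differences between 2 groups had a median standard error of 0.166, and the number of arrays limits the precision.

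The members and the gene lists were chosen with earlier results of these data known. Every member is named, and from each list up to 4 called genes with the smallest p, or the 2 with the smallest p where none was called, could be named. Adgre1 is given as a marker of the tissue, and S100a8, Alas2 and Csf1r likewise. Nqo1, Gclm, Gclc and Nfe2l2 are named as genes of their list that were not called, with the results known. In 10 simulations on 19938 genes, 200 of them changed, for irradiation in vehicle mice, 10.15% of genes changed by a log2 of 0.5 were called, 65.52% at 1 and 96.06% at 2, and 4.28% of calls were false. Alternatives covered the variance model, array weights, the arrays in the fit, scaling, a filter on genes with a mean under 6, the row per gene, the replicate number, the sex pattern, both narrow arrays and each array in turn. The replicate numbers share no stated litter or batch. Same-numbered arrays of both irradiated groups had correlations of their deviations from the group means of 0.144 to 0.57, but those of irradiated and nonirradiated vehicle mice went down to -0.65, so the numbers were not taken to pair the arrays.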

Additional observations from a re-analysis of the deposited data

How the results depend on the processing

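The averaged comparison of irradiation called 4 members in all settings except centring on housekeeping genes and leaving out nonirradiated PTH replicate 2, each with 3. Both lost Mrc1, at adjusted p of 0.0563 and 0.0528. With 1 array left out, the averaged count thus ranged from 3 to 4. In vehicle mice the count of 3 was 1 with the sex pattern as a term (Hmox1), 1 with only the groups compared in the fit (Cd5l), and 0 to 3 with 1 array left out. In PTH mice the count of 1 was 4 with array weights, 3 with housekeeping centring, 2 without both narrow arrays, 0 with the sex term, and 1 to 2 with 1 array left out. For PTH and for the interaction it was 0 in every setting, and 0 to 0 with 1 array left out. With the replicate block the member counts were 3 in vehicle mice, 1 in PTH mice, 4 averaged and 0 for PTH and the interaction, so the block changed none of them. Housekeeping centring moved the median of all genes to -0.162 for irradiation in vehicle mice and to 0.103 in PTH mice. With only the groups compared in the fit, 4 genes passed between nonirradiated PTH and nonirradiated vehicle mice, no member among them. The Y-linked genes Uty (limma adjusted p = 0.0081) and Eif2s3y (limma adjusted p = 0.000135) were among these 4. Sex and PTH cannot be told apart in this comparison. Over 22 settings, 1968 differences of single genes were recomputed. Of these, 1853 kept their side of the threshold, 106 lost a call and 9 gained one. A change of sign without a call on either side occurred in 108. The 1968 include the members' differences for PTH and the interaction, which had no call to lose. In vehicle mice, besides the fits that left out 1 array, Marco kept its call in 6 of 10 settings, and Cd5l and Hmox1 in 9. Of 294 recomputed list counts, 71 moved by over 1.5 times. The cause of these changes was not tested. With 8 residual degrees of freedom, a log2 difference of 0.5 between 2 groups was mostly below what the fit called in simulation. The data called 442 genes for irradiation in vehicle mice, more than the 200 changed in each simulation, so the share called may differ. The averaged comparison was not simulated.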
